A study of Mus musculus with 12 samples.

Results

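The 10 genes described here, *Fos*, *Fosb*, *Jun*, *Junb*, *Jund*, *Egr1*, *Egr2*, *Egr3*, *Ier2*, and *Atf3*, are immediate early and activator protein 1 (AP-1) genes. They were chosen by name as signal-induced genes outside the NF-κB family, and all 10 were found by symbol among the 46078 genes counted. RNA was sequenced from mouse hematopoietic stem and progenitor cells with reduced *Rad21*, a core subunit of the cohesin ring, in 12 libraries, 3 in each of 4 groups.

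All cells were hematopoietic stem and progenitor cells from bone marrow of the C57BL/6 strain. A lentiviral vector had brought an shRNA and GFP into them. Control cells received an shRNA against luciferase (shLuci), which has no target in mouse cells, and knockdown cells received an shRNA against *Rad21* (shRad21). Both culture groups were GFP+CD48-Sca-1+ cells, sorted 3 d after isolation and infection from cultures of LSK cells, which lack lineage markers and carry Sca-1 and c-Kit. Both in vivo groups were GFP+ LSK cells sorted from transplanted mice, and the labels place the harvest 3 months after transplantation, whereas the methods of the study give a longer interval. Nothing in the labels says whether the 3 libraries of a group came from separate animals or cultures, so P values measure the spread between these libraries, which may in part be technical. Lentiviral integration differs from cell to cell, and the sorted cells are a mixture of stem cells and multipotent progenitors.

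Immediate early genes are transcribed within minutes of a signal from preexisting transcription factors, without new protein synthesis, and their RNA decays quickly. Fos and Jun proteins pair through leucine zippers into AP-1, which binds DNA at AP-1 sites, whereas the Egr proteins are zinc finger factors, Atf3 is a related leucine zipper factor induced by stress, and *Ier2* encodes a small nuclear protein. In hematopoietic cells these genes respond to growth factors, cytokines, and stress through MAP kinases and serum response factor, and dual-specificity phosphatases switch the kinases off again.

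Most of the genes were compact. Of the 10, 9 spanned less than 10000 bp, as did 24.3% of the 13175 protein-coding genes tested over all libraries. *Jun*, *Jund*, and *Ier2* had 1 exon each in GENCODE M21, as did 2.41% of those genes. Upstream sequence was listed for 7 of the 10 genes in the RefSeq promoter table (GRCm38.p6), namely *Fos*, *Fosb*, *Jun*, *Junb*, *Jund*, *Egr2*, and *Atf3*. The 150 bases before the listed start site are shown for the 3 genes whose RNA differed most with the knockdown in culture (*Atf3*, *Fos*, and *Junb*) and for *Jun*, which rose in vivo. Capitals mark TGACG, the core of the cAMP response element, on either strand (CGTCA where it lies on the other strand), and TGACATCA, a variant AP-1 element, also searched on both strands.
Fos, chr12:85473740-85473889, + strand: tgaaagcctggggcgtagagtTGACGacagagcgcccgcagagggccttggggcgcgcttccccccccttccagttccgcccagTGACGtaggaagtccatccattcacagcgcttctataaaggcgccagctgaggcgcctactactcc
Junb, chr8:84978749-84978898, - strand: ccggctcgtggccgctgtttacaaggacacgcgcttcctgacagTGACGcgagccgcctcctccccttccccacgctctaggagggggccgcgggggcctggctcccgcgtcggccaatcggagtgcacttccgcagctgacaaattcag
Atf3, chr1:191183334-191183483, - strand: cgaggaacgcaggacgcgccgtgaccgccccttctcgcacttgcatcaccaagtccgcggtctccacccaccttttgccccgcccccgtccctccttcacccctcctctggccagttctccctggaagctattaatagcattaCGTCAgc
Jun, chr4:95052223-95052372, - strand: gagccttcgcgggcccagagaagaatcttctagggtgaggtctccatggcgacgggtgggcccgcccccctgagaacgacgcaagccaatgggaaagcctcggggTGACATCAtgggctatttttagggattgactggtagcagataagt

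TGACG occurred in at least 1 window of 5 of the 7 genes with an entry (*Fos*, *Fosb*, *Junb*, *Egr2*, and *Atf3*), and in 13.4% of all 32544 windows of the same length. For each motif here the count is of genes and the share of windows, and *Egr2* has more than 1 window. In *Fos* the 2 matches began 129 and 66 bases before the start site. TGACATCA, which does not overlap TGACG, was found among the 7 genes in *Jun* only and in 2.25% of all windows. TATAA, searched on both strands and overlapping neither of the other letters, was found in *Fos* and *Egr2* and in 14.2% of all windows. The *Fos* and *Jun* start sites in RefSeq were also the gene starts in GENCODE, whereas the *Atf3* window lies within the annotated *Atf3* gene, upstream of a start site inside it.

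Libraries held between 15235129 and 29846689 counts on genes, and 3 counts, used as the floor of detection, were worth between 0.107 and 0.210 normalized CPM (counts scaled to a library of 1000000). All CPM values were scaled with TMM over the 12 libraries. *Rad21* fell in both settings, from 402 ± 17.7 to 139 ± 13.0 CPM in culture (mean ± SD, n = 3; log2 fold change -1.52 ± 0.09 SE; adjusted P = 1.16e-05) and from 122 ± 3.80 to 44.9 ± 2.40 CPM in vivo (-1.43 ± 0.07; adjusted P = 8.52e-06). In vivo shLuci replicate 2 had at least 1 count on 26938 genes, more than any other library (21502 to 25108). The 9 LSK markers were all at or above 1 CPM on average in each group, and summed to between 2853 and 4529 CPM.

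Culture and in vivo libraries were made with different kits, sorted through different gates, and sequenced in different lanes, so the setting cannot be told apart from these. TruSeq RNA v2 does not record the strand of the transcript, and the strand setting of the counting was not stated. In *Jund*, 52.6% of the exonic bases lie opposite the antisense gene Gm11175, which had 0 counts in every library. In *Jun* 7.28% lie opposite *Junos* and in *Junb* 7.52% opposite *Prdx2*, so these 3 genes carry the uncertainty of overlapping annotation. In these bulk samples, fewer cells expressing a gene and less RNA per cell cannot be told apart.

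Per kilobase of exon, a scale that allows for gene length, the order of the genes differed between settings. The level of *Jund* on this scale may be too low, if reads over the 52.6% of its exonic bases opposite Gm11175 were not counted. This was not tested. In control cells in culture *Jund* (59.1 ± 11.1 CPM per kb; SD, n = 3), *Ier2* (59.0 ± 6.50), and *Junb* (50.9 ± 9.38) came first, and the ranges of neighbours in this order overlapped. *Egr1* (21.2 ± 5.74) and *Jun* (10.5 ± 0.18) followed without overlap. *Fos* (1.72 ± 0.95) and *Atf3* (1.51 ± 0.79) overlapped each other, and *Fosb*, *Egr2*, and *Egr3* averaged 0.062, 0.029, and 0.014 CPM per kb.

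In control cells in vivo *Ier2* came first at 97.6 ± 4.41 CPM per kb, above *Jun* (50.5 ± 3.86), *Fos* (49.4 ± 17.9), and *Junb* (42.2 ± 6.00), whose ranges overlapped from neighbour to neighbour. *Jund* (17.7 ± 0.49) and *Egr1* (3.95 ± 0.35) were lower, each without overlap with its neighbours. *Fosb* (0.318 ± 0.11), *Atf3* (0.183 ± 0.11), and *Egr2* (0.102 ± 0.14) overlapped from neighbour to neighbour, and *Egr3* had 0 counts. *Fos* thus moved from a place beside *Atf3* in culture to one beside *Jun* in vivo, and *Jund* from the first place to the fifth. Both places of *Jund* carry the uncertainty of its overlap with Gm11175.

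**Figure D1:**
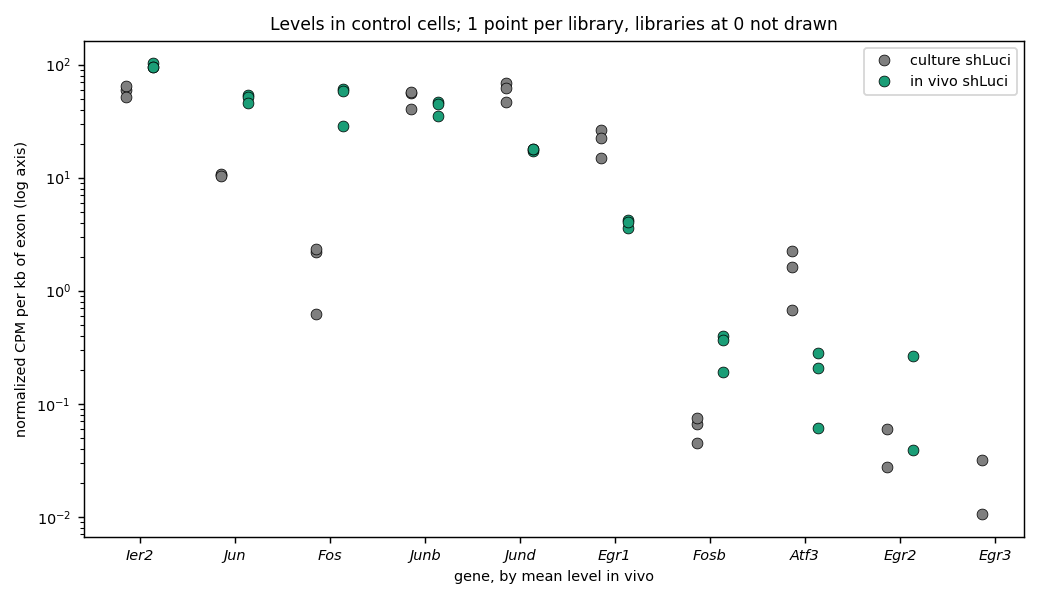
Levels in control cells, in normalized CPM per kilobase of exon on a log axis, with 1 point per library (3 libraries per group; libraries at 0 are not drawn). *Fos* lies at 0.626 to 2.36 in culture and at 28.7 to 60.6 in vivo, whereas *Jund* and *Egr1* lie higher in culture.

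The comparison of control cells between the settings asked how the genes differed between cells activated in culture and cells settled in recipients. *Fos* (chr12:85473890-85477273, + strand, 4 exons), which encodes the founding Fos subunit of AP-1, had 1.47, 5.13, and 5.55 CPM in culture and 142, 139, and 67.5 CPM in vivo. It was 27.3-fold lower in culture, the widest difference among the 8 members tested (log2 -4.77 ± 0.36; adjusted P = 1.46e-08). *Fosb* (chr7:19302696-19310051, - strand, 5 exons), which encodes a second Fos protein, had 0.280, 0.410, and 0.467 CPM in culture and 2.49, 2.27, and 1.19 CPM in vivo (log2 -2.31 ± 0.48; adjusted P = 0.000462), and it passed the filter on low counts only through its in vivo libraries, where it was high. *Jun* (chr4:95049034-95052222, - strand, 1 exon), which encodes the most potent activator of the Jun proteins, had 33.4, 34.1, and 32.9 CPM in culture and 170, 166, and 147 CPM in vivo, 4.81-fold lower in culture (adjusted P = 1.54e-09). *Ier2* (chr8:84661331-84662852, - strand, 1 exon) was 1.66-fold lower in culture, with 91.2, 98.8, and 79.2 CPM against 156, 144, and 145 CPM in vivo (adjusted P = 3.19e-05).

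Other members had more RNA in culture. *Egr1* (chr18:34859823-34864984, + strand, 3 exons), a zinc finger factor that keeps stem cells quiescent and in the niche, had 67.2, 118, and 99.9 CPM in culture and 18.9, 15.9, and 18.3 CPM in vivo, a 5.37-fold difference (adjusted P = 7.72e-08). *Jund* (chr8:70698949-70700616, + strand, 1 exon), the Jun protein that is abundant in resting cells and restrains proliferation in many of them, was 3.34-fold higher in culture (adjusted P = 2.22e-07), with 114, 104, and 78.1 CPM against 28.5, 29.9, and 30.0 CPM. *Atf3* (chr1:191170296-191218039, - strand, 5 exons) had 4.84, 3.49, and 1.45 CPM in culture and 0.444, 0.605, and 0.133 CPM in vivo, where it reached only 10, 12, and 3 counts (log2 3.03 ± 0.58; adjusted P = 0.000219), and it passed the filter only through culture, where it was high.

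*Junb* (chr8:84974484-84978718, - strand, 2 exons), which can counter Jun and limits expansion of myeloid cells, was the tested gene without a call between the settings. It had 128, 131, and 92.4 CPM in culture and 108, 102, and 81.5 CPM in vivo (log2 0.27 ± 0.14, adjusted P = 0.0936). The adjusted P was 0.00910 without culture shLuci replicate 3 and 0.00542 without a filter on low counts. Of the 8 members tested, 7 were called, 4 lower and 3 higher in culture, where 74.2% of all 17050 genes were called. The same 7 did not overlap between the groups, as 74.9% of all genes did not, so the count is near the background. With at least 10 counts in every library, which leaves out *Fosb* and *Atf3*, 5 of 6 were called (3 lower and 2 higher), where 76.5% of all genes were called. Scaling by upper quartiles moved the median of all genes by -0.12 and scaling by library size alone by -0.17 (log2), and all 8 kept their direction under both.

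The RNA of the Jun family was made up in different proportions in the 2 settings. Of the summed CPM per kb of the Jun family in control cells, *Jun* held 8.88% ± 1.52 in culture and 45.8% ± 0.48 in vivo, and *Jund* held 48.9% ± 1.64 and 16.1% ± 1.78 (SD, n = 3). *Junb* held 42.2% ± 1.50 in culture and 38.1% ± 2.25 in vivo. With the knockdown the share of *Jun* lay between 11.9% and 16.7% in culture, above its range of 7.81% to 10.6% in control cells, and between 54.1% and 57.3% in vivo, above its range of 45.5% to 46.3%. These shares are a description, since 3 against 3 libraries allow no exact permutation test to pass the threshold. They also carry the uncertainty of overlapping annotation, and the share of *Jund* may be too low if reads opposite Gm11175 were not counted.

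**Figure D2:**
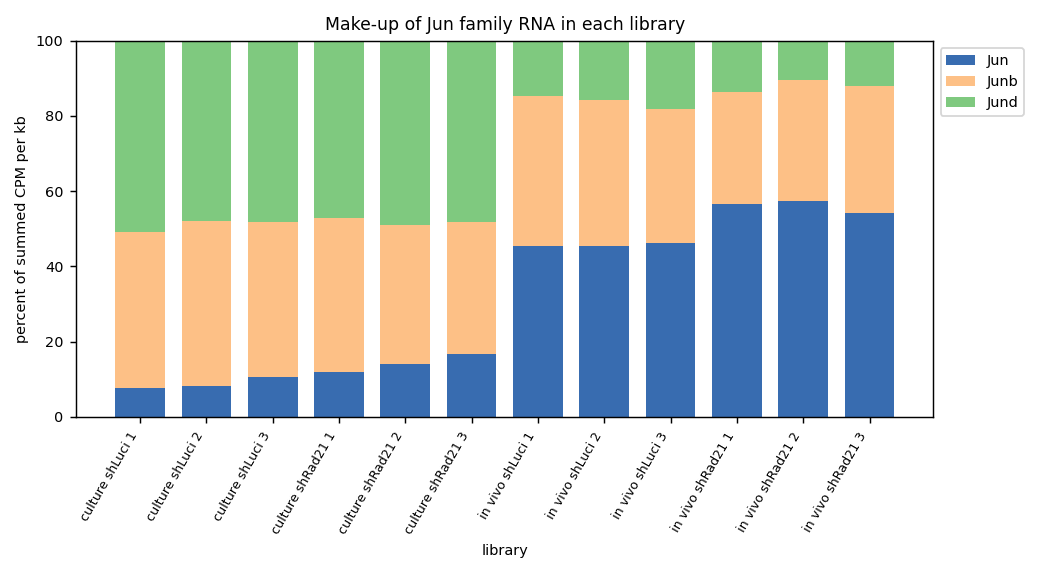
Make-up of the RNA of *Jun*, *Junb*, and *Jund* in each of the 12 libraries, as a percentage of their summed CPM per kilobase of exon. *Jund* holds 47.0% to 50.8% in the 6 culture libraries and 10.4% to 18.1% in the 6 in vivo libraries, where *Jun* holds the largest part. The part of *Jund* may be too low if reads opposite Gm11175 were not counted.

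The knockdown in culture asked how the genes responded to less *Rad21* in activated cells. 4 of the 7 members tested were differentially expressed genes (DEGs) at an adjusted P below 0.05, and all 4 were lower: *Atf3*, *Fos*, *Junb*, and *Jund*. Of all 15543 genes tested, 14.2% were DEGs and 8.06% were lower. With at least 10 counts in every library, which leaves out *Atf3*, 3 of 6 were called and all 3 were lower. That fit called 2015 of all 14375 genes, 1143 of them lower. *Junb* had 57.3, 63.9, and 54.8 CPM in shRad21 cells and 117 ± 21.6 CPM in control cells, so that all 3 knockdown libraries lay below all 3 controls (1.99-fold lower; log2 -0.99 ± 0.13; adjusted P = 0.000614). *Jund* had 47.5, 61.6, and 54.8 CPM against 98.6 ± 18.4 CPM, also without overlap (1.79-fold lower; log2 -0.84 ± 0.14; adjusted P = 0.00237). Both calls held without each library in turn, with adjusted P of at most 0.00596 for *Junb* and 0.0186 for *Jund*.

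*Atf3* had 8, 17, and 8 counts in shRad21 libraries and 69, 68, and 31 counts in control libraries, which were 0.329, 0.858, and 0.284 CPM against 4.84, 3.49, and 1.45 CPM. The groups did not overlap (6.72-fold lower; log2 -2.75 ± 0.50; adjusted P = 0.00408), but the gene passed the filter on low counts through its control libraries, so its entry into the test was not independent of the difference. *Fos* had 1.81, 1.72, and 1.07 CPM in shRad21 cells, and 1.47, 5.13, and 5.55 CPM in control cells, where replicate 1 lay within the range of the knockdown. *Fos* was called at an adjusted P of 0.0374 (log2 -1.44 ± 0.41). Without control replicate 1 it was 0.00216, and without control replicate 2 or 3 or any 1 of the 3 shRad21 libraries it lay between 0.0597 and 0.150. With all 12 libraries in one model it was 0.0649. *Junb*, *Jund*, and *Atf3* were thus the 3 of 7 whose groups did not overlap, against 31.5% of all genes tested.

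The other members tested in culture were not called. *Jun* had 22.9, 33.5, and 36.3 CPM in shRad21 cells, a range that held all 3 control values (log2 -0.11 ± 0.15; adjusted P = 0.709). *Egr1* had 109, 113, and 73.0 CPM against 67.2, 118, and 99.9 CPM (log2 0.05 ± 0.20; adjusted P = 0.916). *Ier2* had 71.1, 79.3, and 67.8 CPM against 91.2, 98.8, and 79.2 CPM, which overlapped at 1 value of each group (log2 -0.30 ± 0.10; adjusted P = 0.0783). With the replicate number as a block *Ier2* was called (adjusted P = 0.0160), so that 5 of 7 members were DEGs and all 5 lower, where the block called 20.5% of all genes. Without control replicate 3 its adjusted P was 0.0146.

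*Fosb*, *Egr2*, and *Egr3* did not pass the filter in culture. *Fosb* had between 4 and 20 counts in the 6 culture libraries. *Egr2* (chr10:67535475-67542188, + strand, 4 exons), known for its part in myeloid and lymphoid development, had 0, 4, and 2 counts in control cells and 8, 2, and 8 in shRad21 cells. *Egr3* (chr14:70077203-70082614, + strand, 3 exons) had between 0 and 2 counts in each of the 12 libraries, below the floor of 3 counts. The main fit thus gave no result for these genes in culture, and small differences were not detectable at this depth. *Fosb* was tested there in 5 alternative edgeR fits and called in none (log2 0.17 to 0.48, adjusted P of 0.655 or more).

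**Figure D3:**
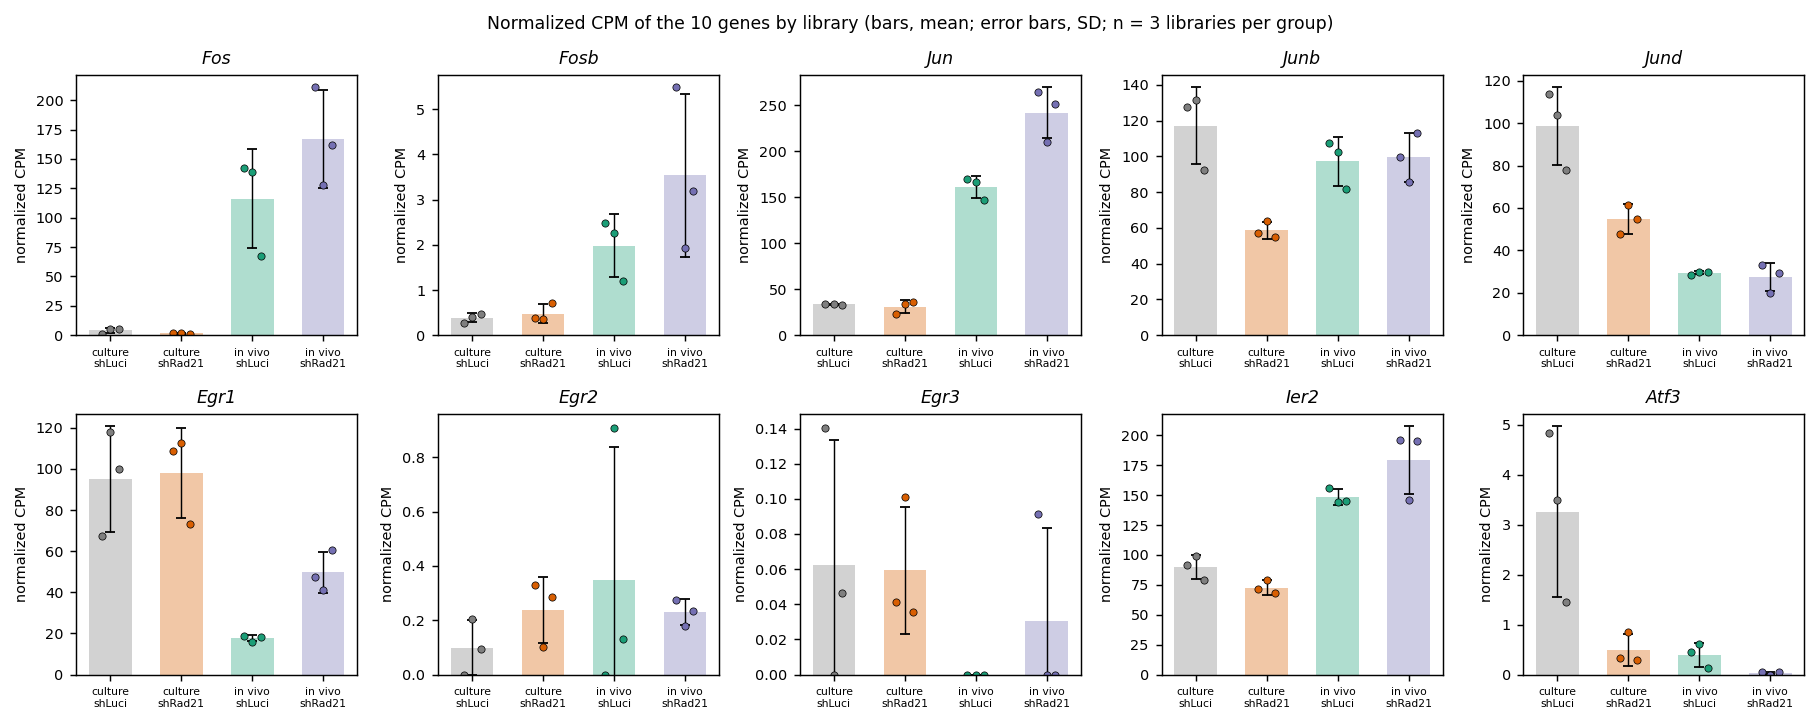
Normalized CPM of each of the 10 genes in the 12 libraries, with bars for the mean and error bars for the SD (n = 3 per group), each panel on its own axis from 0. In culture *Junb*, *Jund*, and *Atf3* are lower in all 3 shRad21 libraries than in all 3 controls, and in vivo *Jun* and *Egr1* are higher in all 3.

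The knockdown in vivo asked the same in cells taken from recipients. *Egr1* and *Jun* were the DEGs among the 7 members tested, and both were higher, where 11.0% of all 15938 genes were DEGs and 5.65% were higher. *Egr1* had 47.5, 41.1, and 60.5 CPM in shRad21 cells and 18.9, 15.9, and 18.3 CPM in control cells, so that the lowest knockdown library had more than the highest control (2.83-fold higher; log2 1.50 ± 0.15; adjusted P = 0.000268). *Jun* had 264, 210, and 251 CPM against 170, 166, and 147 CPM, again without overlap (1.51-fold higher; log2 0.60 ± 0.09; adjusted P = 0.00280). Both calls held in all 13 alternative fits, with adjusted P of at most 0.00190 for *Egr1* and 0.0187 for *Jun*. They were 2 of 7 members without overlap, against 29.1% of all genes tested.

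The remaining members tested in vivo were not called. *Fos* had 211, 128, and 162 CPM in shRad21 cells and 142, 139, and 67.5 CPM in control cells (log2 0.54 ± 0.26; adjusted P = 0.251), and the groups overlapped. *Fosb* had 5.49, 1.93, and 3.20 CPM against 2.49, 2.27, and 1.19 CPM (log2 0.85 ± 0.41; adjusted P = 0.244). *Ier2* had 196, 146, and 195 CPM against 156, 144, and 145 CPM (log2 0.28 ± 0.10; adjusted P = 0.120). DESeq2 called *Ier2* (adjusted P = 0.0428), as did the fit without shRad21 replicate 2 (0.00586). *Junb* (99.9, 85.6, and 113 CPM against 108, 102, and 81.5; log2 0.05 ± 0.12) and *Jund* (33.1, 20.1, and 29.4 CPM against 28.5, 29.9, and 30.0; log2 -0.09 ± 0.16) had adjusted P of 0.868 and 0.813.

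*Atf3* did not pass the filter in vivo. It had 10, 12, and 3 counts in control libraries and 1, 0, and 1 in shRad21 libraries. The 2 counts of the knockdown against 25 of the control gave 7.95% of the control level after scaling, with an exact (Clopper-Pearson) 95% interval of 0.912% to 31.9% that covers counting error only. In the model of all 12 libraries, where the gene passed through its culture libraries, the adjusted P in vivo was 0.0370 (log2 -3.44). *Egr2* had 0, 18, and 3 counts in control libraries and 6, 4, and 5 in shRad21 libraries; the value of 18 came from replicate 2, the library with the most genes detected.

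**Figure D4:**
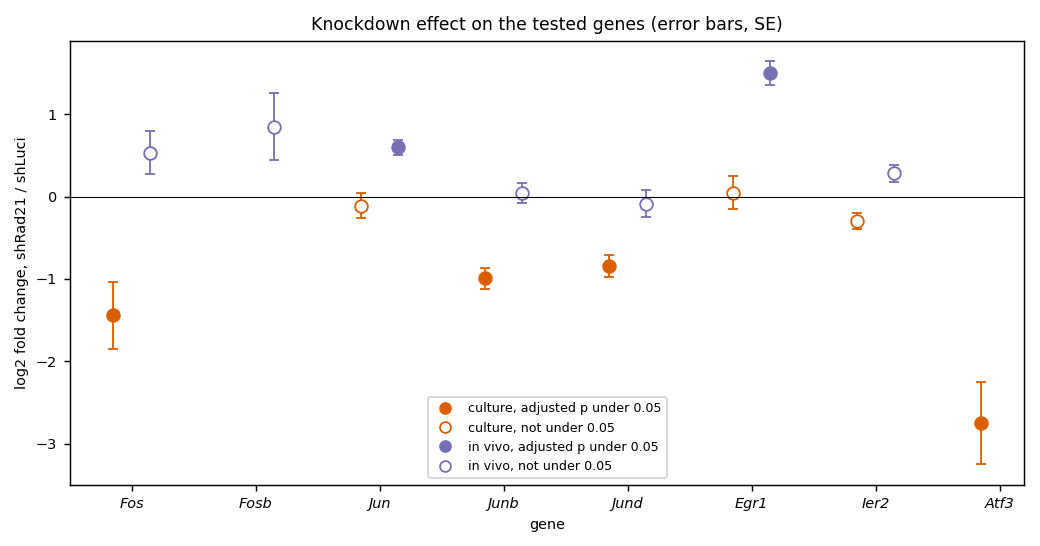
Log2 fold change of shRad21 over shLuci for the members tested in culture and in vivo, with error bars for the SE from edgeR and filled points for an adjusted P below 0.05. Filled points lie at -2.75 to -0.84 in culture (*Atf3*, *Fos*, *Junb*, and *Jund*) and at 0.60 and 1.50 in vivo (*Jun* and *Egr1*). *Atf3*, at -2.75, passed the filter in culture through its control libraries. *Fos* in culture kept its call in 1 of the 6 fits without 1 library.

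Whether the response differed between the settings was tested over all 12 libraries, as the log2 change in culture less that in vivo. 3 of the 8 members tested were called, all below 0, where 4.67% of all 17050 genes were called. *Egr1* differed by -1.45 ± 0.28 on the log2 scale (adjusted P = 0.00868) and *Junb* by -1.03 ± 0.20 (adjusted P = 0.00745), and both calls held in all 18 alternative fits. *Jun* differed by -0.70 ± 0.19 at an adjusted P of 0.0488. It was called in 2 of the 12 fits that left out 1 library, those without culture shRad21 replicate 3 and without in vivo shRad21 replicate 2, and the adjusted P over the 12 ranged from 0.0265 to 0.119. These 3 differences came from different sides, since *Junb* fell in culture, whereas *Egr1* and *Jun* rose in vivo.

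*Ier2* (-0.57 ± 0.16; adjusted P = 0.0526) and *Fos* (-2.02 ± 0.56; adjusted P = 0.0565) lay just outside the threshold. With the replicate number as a block their adjusted P were 0.0184 and 0.0457, so that 5 members were called, where the block called 5.81% of all genes. Without in vivo shRad21 replicate 2 the count was 6, with *Fos* (0.0431), *Jund* (0.0147), and *Ier2* (0.00795) added. Without culture shLuci replicate 3 *Jund* and *Ier2* were called (0.0327 and 0.0300), and *Fos* was called without culture shLuci replicate 1 (0.0214) or in vivo shLuci replicate 1 (0.0473). *Jund* differed by -0.75 ± 0.23 (adjusted P = 0.0859), *Fosb* by -0.53 ± 0.66 (0.765), and *Atf3*, which was lower with the knockdown in both settings, by 0.69 ± 1.41 (0.822).

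The members also varied among the libraries of a group. The within-group SD of log2(CPM + 0.5) was 0.159 for *Ier2*, 0.203 for *Jun*, and 0.594 for *Fos*, against a median of 0.163 over all genes tested and of 0.120 over the 8843 genes whose average log2 CPM lay from 4 to 8. In vivo shRad21 replicate 2 had the lowest value of its group in 8 of the 8 tested members, and replicate 3 of each of the other 3 groups in 5 of 8. Centred on the group means, *Ier2* and *Junb* correlated most with the mean of the other tested members over the 12 libraries (Pearson's r = 0.799 and 0.713), and *Atf3* least (0.245). The libraries share their sequencing lane within each setting, and these correlations are a description.

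Of all other genes, 5 followed the mean of the members most closely over the same 12 centred values. They were *Yipf1* (r = 0.957; Spearman's rho = 0.930), *Gm17808* (0.936; 0.965), *Sirt5* (0.929; 0.902), *Gorasp2* (0.923; 0.860), and *Rhobtb1* (0.914; 0.846). Without the 2 libraries farthest from the median of the members' mean, r was 0.949, 0.881, 0.907, 0.816, and 0.814 in this order. They were picked as the closest of all genes whose average log2 CPM was 1 or more, so the size of r has no test.

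The wider pathway was followed in 4 lists, of which the AP-1 partners are bZIP factors that pair or compete with Fos and Jun. In culture 5 of the 15 tested were DEGs, 1 higher and 4 lower, where 14.2% of all genes were DEGs and 8.06% were lower. Their median log2 fold change was 0.03, against 0.00 for all genes. *Jdp2*, which represses AP-1, fell by 0.89 ± 0.15 on the log2 scale (26.5 to 14.2 CPM; adjusted P = 0.00312). *Batf*, a partner of Jun proteins in lymphoid and myeloid cells, fell by 0.69 ± 0.16 (55.9 to 34.4 CPM; adjusted P = 0.0146). *Crem*, a cAMP-responsive factor, rose by 0.84 ± 0.17 (6.20 to 11.0 CPM; adjusted P = 0.00821). In vivo 2 of 17 were DEGs, where 11.0% of all genes were. These were *Mafg* (0.42 ± 0.09) and *Nfe2l2* (0.24 ± 0.07), both higher. Between the settings the effect on *Batf* differed by -0.76 ± 0.20 (adjusted P = 0.0432).

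Other immediate early genes held the largest share of DEGs in culture, 18 of 27 tested, of which 13 were lower and 5 higher, with a median log2 fold change of -0.40. Of all genes tested there, 14.2% were DEGs and 8.06% were lower. *Gadd45b*, a stress gene upstream of p38 and JNK, fell by 1.46 ± 0.21 (35.8 to 12.9 CPM; adjusted P = 0.00113), and *Plk3*, a stress-responsive kinase, by 1.29 ± 0.21 (8.23 to 3.35 CPM; adjusted P = 0.00196). *Gadd45g*, a paralog of *Gadd45b*, had 2.24, 2.82, and 2.57 CPM in control cells and 11.0, 13.7, and 13.3 CPM in shRad21 cells, a rise of 2.31 ± 0.17 (adjusted P = 2.07e-05). *Sgk1*, a kinase induced by serum and glucocorticoids, rose by 0.87 ± 0.22 (adjusted P = 0.0229). The paralogs *Gadd45b* and *Gadd45g* thus moved in opposite directions in the same libraries.

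In vivo 6 of 27 were DEGs, 3 in each direction, with a median of 0.04, where 11.0% of all genes were DEGs. *Gadd45g* again rose, from 4.44, 3.83, and 3.58 to 15.8, 15.0, and 10.4 CPM (1.81 ± 0.20; adjusted P = 0.000477), and *Trib1*, a pseudokinase that directs protein degradation in myeloid cells, rose by 1.56 ± 0.25 (adjusted P = 0.00391). *Ier5l* fell by 1.73 ± 0.39 and *Gadd45b* by 0.64 ± 0.16 (adjusted P = 0.0195 and 0.0283). The response differed between settings in 9 of 27, 8 of them below 0, where it differed in 4.67% of all genes. *Nr4a1*, an orphan nuclear receptor, had 21.1, 15.3, and 12.0 CPM in control cells and 9.10, 7.42, and 5.01 CPM in shRad21 cells in culture, and 3.91, 4.08, and 3.80 against 7.55, 3.10, and 7.57 CPM in vivo (difference -1.79 ± 0.43; adjusted P = 0.0278). The difference was -1.57 ± 0.31 for *Plk3* (adjusted P = 0.00821) and 1.50 ± 0.31 for *Sgk1* (adjusted P = 0.0124).

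Of the MAP kinases and factors upstream of immediate early genes, 4 of 22 were DEGs in culture, near the 14.2% of all genes. All 4 were higher, by at most 0.54 on the log2 scale. These were the kinases of the p38 and JNK arms *Map2k6* (0.54 ± 0.15), *Map2k3* (0.34 ± 0.08), and *Map2k4* (0.33 ± 0.08), and *Mrtfa* (0.32 ± 0.09), a coactivator of serum response factor. In vivo *Map2k4* (0.27 ± 0.06) and *Mapk14* (0.23 ± 0.06), which encodes p38α, were higher. *Map2k6* differed between the settings (0.90 ± 0.23; adjusted P = 0.0362). The median of the list was 0.07 in culture and 0.05 in vivo.

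Feedback inhibitors, which are induced by the same signals and shut them off, were DEGs in 5 of 17 in culture (3 higher) and 6 of 17 in vivo (4 higher), with medians of -0.01 and 0.15. Of all genes 14.2% were DEGs in culture and 11.0% in vivo. *Dusp5*, a nuclear phosphatase of ERK, fell in both settings, from 57.4, 44.5, and 43.2 to 18.5, 18.3, and 17.6 CPM in culture (-1.40 ± 0.12; adjusted P = 4.65e-05) and from 36.8, 33.8, and 32.2 to 14.5, 13.2, and 14.8 CPM in vivo (-1.26 ± 0.11; adjusted P = 0.000141). *Dusp2*, which acts on ERK and p38, fell by 1.37 ± 0.10 in culture and by 0.43 ± 0.11 in vivo, a difference of -0.94 ± 0.16 (adjusted P = 0.00406). *Dusp4*, a nuclear phosphatase of ERK and JNK, rose by 0.77 ± 0.10 in culture and by 0.94 ± 0.20 in vivo, and *Rgs2*, a regulator of G protein signaling, rose by 0.63 ± 0.15 in culture. *Spry1*, an inhibitor of receptor tyrosine kinase signaling, rose by 0.67 ± 0.12 in vivo. *Rgs1* (-1.25 ± 0.27; adjusted P = 0.0166) and *Spred1* (-0.39 ± 0.10; adjusted P = 0.0450) also differed between the settings. Over the 4 lists together 32 of 81 tested genes were DEGs in culture, where 14.2% of all genes were, and 16 of 83 in vivo, where 11.0% were. The response differed in 14 of 83, against 4.67% of all genes. The counts of AP-1 partners and MAP kinases in vivo (2 of 17 and 2 of 22) were near the share over all genes. So was the count of MAP kinases in culture (4 of 22). These lists share signaling inputs with the 10 members, and a count gives no test of a list.

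**Figure D5:**
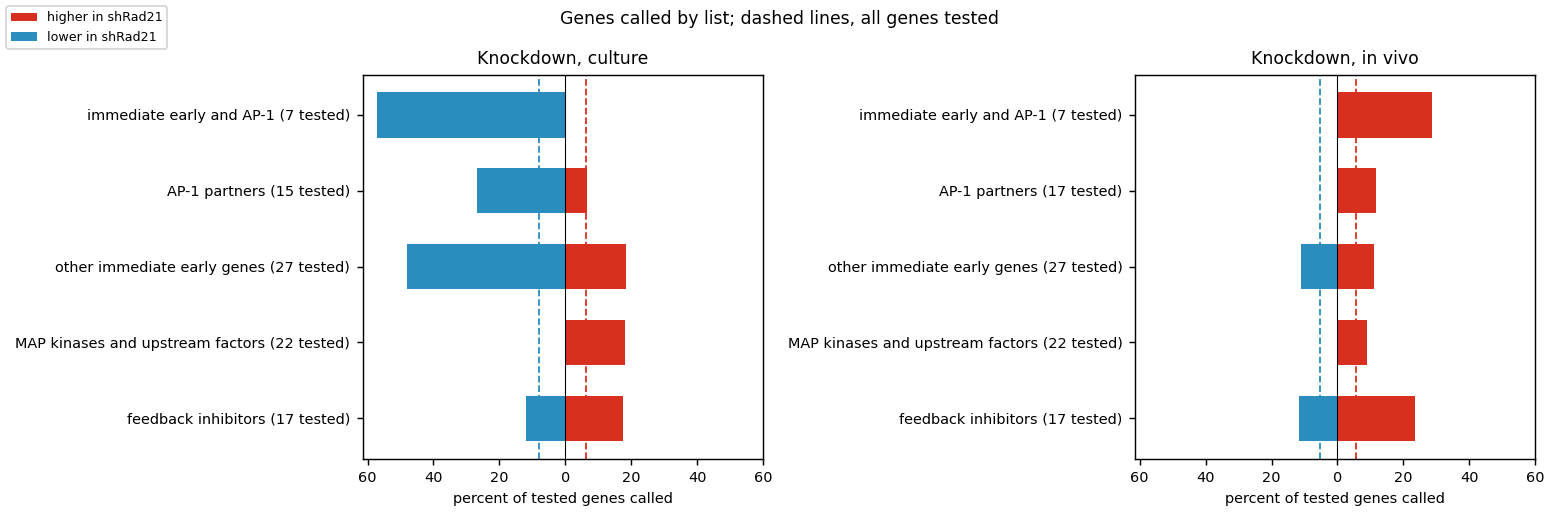
Percentage of the tested genes of each list that were DEGs with the knockdown, with genes higher in shRad21 cells to the right and lower ones to the left of 0; dashed lines mark all genes tested. In culture the 10 members (4 of 7) and the other immediate early genes (13 of 27) extend farthest to the lower side. The 4 include *Atf3*, which passed the filter through its control libraries. In vivo no tested member lies there, but *Atf3* was not tested, with 1, 0, and 1 counts in shRad21 and 10, 12, and 3 in control libraries.

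Between control cells of the 2 settings 74.2% of all genes were called, and the counts of the lists were near this background, with 13 of 17 AP-1 partners, 21 of 27 other immediate early genes, 18 of 22 MAP kinases and upstream factors, and 15 of 17 feedback inhibitors. *Pim1*, a kinase gene induced by cytokines through STAT5, had 464, 519, and 601 CPM in culture and 20.6, 15.6, and 17.0 CPM in vivo (log2 4.90 ± 0.16). *Maff*, a small Maf factor, was higher in culture by 3.50 ± 0.17 and *Fosl1*, a Fos-related subunit of AP-1, by 2.94 ± 0.41, whereas *Batf2* (-1.80 ± 0.21) and *Mafk* (-1.10 ± 0.08) were lower. *Dusp1*, a phosphatase of p38 and JNK that is itself an immediate early gene, was lower in culture by 2.95 ± 0.15 (15.4, 15.4, and 16.9 against 135, 114, and 121 CPM), as were *Dusp6* (1.50 ± 0.10) and *Klf10* (1.82 ± 0.13). Of the 15 feedback inhibitors called, 9 were higher in culture and 6 lower, and *Dusp16* (3.15 ± 0.18) and *Spry4* (3.13 ± 0.49) rose most. *Nr4a1* (2.03 ± 0.31), *Rps6ka3* (2.47 ± 0.11), and *Braf* (1.48 ± 0.09) were also higher in culture. *Sgk1* (-1.73 ± 0.23), *Map2k3* (-0.76 ± 0.08), and *Rps6ka1* (-0.64 ± 0.07) were lower.

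Markers of other cell types moved with the knockdown as well. Of 11 markers of committed granulocytes and monocytes, 6 of 7 tested were lower in culture and 4 of 10 in vivo. They summed to between 227 and 310 CPM in control and between 183 and 200 CPM in shRad21 cells in culture, and to between 2082 and 2639 and between 1694 and 1848 CPM in vivo, with *Ly6g* at 0 in both culture groups and *S100a8* in the culture controls. Of 6 markers of macrophages and dendritic cells, 4 of 4 tested were lower in culture (90.4 to 150 against 37.4 to 49.2 CPM summed) and 4 of 6 in vivo (440 to 579 against 179 to 243 CPM), with *C1qa* at 0 in culture. Of 6 B cell markers, 1 of 3 tested was lower in culture (85.0 to 108 against 64.4 to 93.3 CPM) and 4 in vivo (881 to 2337 against 678 to 1404 CPM). Of 6 markers of T and NK cells, 1 of 2 tested was lower in each setting (20.3 to 38.4 against 13.1 to 20.5 CPM in culture, 299 to 406 against 190 to 219 CPM in vivo), with *Cd8a* and *Gzma* at 0 in culture, and of 6 erythroid markers 2 were lower in vivo (63.3 to 116 against 54.2 to 75.4 CPM), with *Hba-a1* at 0 in culture. Of 5 markers of mast cells and basophils, 2 were higher in each setting (237 to 302 against 343 to 536 CPM in culture, 339 to 390 against 509 to 582 CPM in vivo). None were called lower, but their median log2 fold change was 1.34 over the 4 tested in culture and -0.30 over the 5 tested in vivo. Of 5 megakaryocyte markers, 3 were higher in vivo (239 to 301 against 443 to 601 CPM), and 2 were higher and 2 lower in culture (577 to 665 against 598 to 886 CPM). Of the 9 LSK markers, 4 were higher and 2 lower in culture, and 4 higher and 3 lower in vivo, where their sum was 4261 to 4529 against 4014 to 4220 CPM. Of 4 stromal and endothelial markers, none of 2 tested was called in culture, and the 1 tested in vivo was lower (1.02 to 4.39 against 0.595 to 0.808 CPM). The part of these cell types in the differences of the 10 genes was not tested. The mitochondrial share of counts was 1.60% to 1.98% in culture and 1.06% to 1.35% in vivo.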

How the data were processed

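Poly(A) RNA was sequenced from 12 libraries as single-end reads, with TruSeq RNA v2 in culture and with SMART-Seq v4 and Nextera XT in vivo. The authors removed rRNA reads with SortMeRNA, trimmed with Prinseq, mapped to GRCm38 (mm10) with TopHat2 2.0.11, and counted with HTSeq 0.6.1. The annotation release and strand setting are not given in the sources used here. The deposited values are raw counts per Ensembl gene, with no normalization, and reads shared by near-identical genes may be lost.

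From these, 45143 of 46078 genes were matched by identifier to GENCODE M21 for symbols and exon lengths. The default filterByExpr cutoff (10 counts at a typical depth, in 3 libraries) was applied to low genes, and the others were tested with edgeR 4.0.16 (quasi-likelihood, TMM, two-sided) in R 4.3.3, with Benjamini-Hochberg adjustment over all genes tested and a threshold of 0.05. The knockdown was tested on the 6 libraries of each setting, the control cells and the difference in response on all 12. Standard errors are the size of the log2 fold change before edgeR's shrinkage, divided by the root of F. The log2 fold changes printed are those after shrinkage. DESeq2 1.42.0, other scalings and filters, a replicate block, and omission of each library were the alternatives. The fits were tested on simulated data, in which false calls with the knockdown within a setting were on average somewhat more frequent than the threshold allows. The counts of replicates gave a chi-square of 5.73 to 20.7 per degree of freedom against sampling noise, so no library was counted as a copy. In culture, libraries of the same number deviated together (r = 0.263 to 0.292 for the 3 pairs, against -0.354 to 0.064 for the others). The numbers, which come from the sample titles, may thus pair these samples. The labels do not say so, and the main tests used no block. Figures were drawn with matplotlib 3.10.9.

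Members and lists were chosen with earlier results of these data known. Named were the 10 members, *Rad21*, the called genes of each list (up to 4, otherwise the 2 largest changes each way where the average log2 CPM was 1 or more), and the 5 genes most like the members. The nearest-gene correlation used log2(CPM + 0.5). Limits of depth (3 counts, exact 95% intervals) cover counting error only.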

Additional observations from a re-analysis of the deposited data

Results flagged for a closer look

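The response to the knockdown differed between culture and in vivo in 3 of the 8 members tested and in named genes of the wider pathway. These were called by edgeR's test of the difference itself (adjusted P below 0.05), which called 4.67% of all 17050 genes. On the log2 scale, culture minus in vivo, the differences were -0.70 for *Jun*, -1.03 for *Junb*, and -1.45 for *Egr1*. The call of *Jun* lay near the threshold (adjusted P = 0.0488) and held in 2 of the 12 fits without 1 library. For the pathway genes the differences were -0.76 for *Batf*, -1.79 for *Nr4a1*, -1.57 for *Plk3*, 1.50 for *Sgk1*, 0.90 for *Map2k6*, -1.25 for *Rgs1*, -0.94 for *Dusp2*, and -0.39 for *Spred1*. *Batf* and *Spred1* also lay near the threshold (adjusted P = 0.0432 and 0.0450). Kit, sort gate, and lane differ with the setting and cannot be told apart from it.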

How the results depend on the processing

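Among the 10 genes, fits that left out no library kept every direction, and changed the side of the threshold in 17 of 189 values. Leaving out 1 library reversed 7 of 228 values, none of them called: *Jun* in culture ranged from -0.24 to 0.080 (reversed without shRad21 replicate 1), *Egr1* in culture from -0.14 to 0.24 (without control replicate 1 or shRad21 replicate 1 or 2), *Junb* in vivo from -0.067 to 0.15 (without control replicate 3 or shRad21 replicate 3), and *Jund* in vivo from -0.23 to 0.097 (without shRad21 replicate 2). Without a filter on low counts, 5 members (2829 genes in all) were called in vivo, and 6 members, 1409 genes, and 23 list genes for the difference in response. For that difference 5 members were called by DESeq2 (1246 genes) and with the replicate block (991 genes). With at least 10 counts in every library 5 of 6 members were called, and 873 of 13364 genes. Without 1 library, 3 to 4 members (1352 to 2817 genes) were called in culture and 2 to 3 (951 to 1562) in vivo. Between control cells 7 to 8 members (12180 to 12501 genes) were called, and for the difference 2 to 6 (492 to 845). The causes were not tested. In vivo, libraries of the same number showed little shared deviation (r = 0.016 to 0.087), and the replicate block called 2 members and 1699 genes. *Egr2*, *Egr3*, and *Fosb* in culture, and *Atf3* in vivo, are limited by depth. *Nfe2l2* and *Gadd45b* in vivo lost their calls in the model of 12 libraries, and *Mapk14* with the block.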
